A study of Rattus norvegicus with 6 samples.

Results

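The 9 enzymes that supply deoxynucleotides and pyrimidines (Tk1, Dck, Rrm1, Rrm2, Tyms, Dut, Dctd, Cad and Umps) were followed in cultured rat oligodendrocyte precursor cells (OPCs) given the RIPK1 kinase inhibitor ZJU-37. They were taken by gene name, each matched 1 of the 32883 rows of the authors' count table, and all 9 passed the filter on low counts with at least 161 counts in every library. OPCs were shaken off mixed cultures of cerebral cortex, pooled from 2 Sprague Dawley rats that the labels give as newborn (P0) and the study methods as between postnatal days 0 and 2, and were then kept in Neurobasal with B27 and N2. One group of 3 libraries received 5 µM ZJU-37 and the other group of 3 an equal volume of its solvent DMSO, so that all cells shared strain, source and medium. The labels give 36 h of treatment, whereas the methods of the study give a shorter time. The methods call the libraries biological repeats and a legend calls them plate wells, so p-values measure the spread between these libraries, which may be technical. Poly-A RNA was sequenced, and library totals ran from 13935865 to 24097927 counts. Levels are given as CPM, the count of a gene divided by the scaled library total, on which scale 3 counts are worth 0.124 to 0.215 (counting error only).

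Cells need a balanced supply of dATP, dGTP, dCTP and dTTP before they can copy their DNA. Ribonucleotide reductase, built from the Rrm1 and Rrm2 proteins, removes the 2′-hydroxyl of ribonucleotides and commits them to DNA, thymidylate synthase (Tyms) makes the base that is particular to DNA, and kinases such as Tk1 and Dck recover deoxynucleosides from outside the cell. Cad and Umps act in the de novo synthesis of the pyrimidine nucleotide UMP, which RNA, membrane lipids and sugar conjugates also draw on. Several of these genes are textbook targets of E2F transcription factors, and OPCs are the main dividing glial cells of the young brain.

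All 9 enzyme genes rose with ZJU-37. The fold changes ran from 1.32 for Cad to 3.01 for Rrm2, with a median log2 fold change of 0.97 against -0.03 for all 14670 tested genes. The members outside de novo pyrimidine synthesis had the larger increases, between 1.80-fold and 3.01-fold. The pair of de novo pyrimidine synthesis, Cad and Umps, had the smaller ones. In the quasi-likelihood test of edgeR, adjusted over all tested genes (Benjamini-Hochberg), 9 of 9 had an adjusted p under 0.05, where 9.43% of all tested genes were called higher and 5.58% lower. In each of the 9 the 3 ZJU-37 libraries lay above the 3 DMSO libraries, as they did in 19.0% of all tested genes. The two-sided exact permutation test gave p = 0.1 for each, the smallest p that 3 libraries against 3 allow. In bulk RNA, more cells that express a gene and more RNA per cell cannot be told apart.

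**Figure D1:**
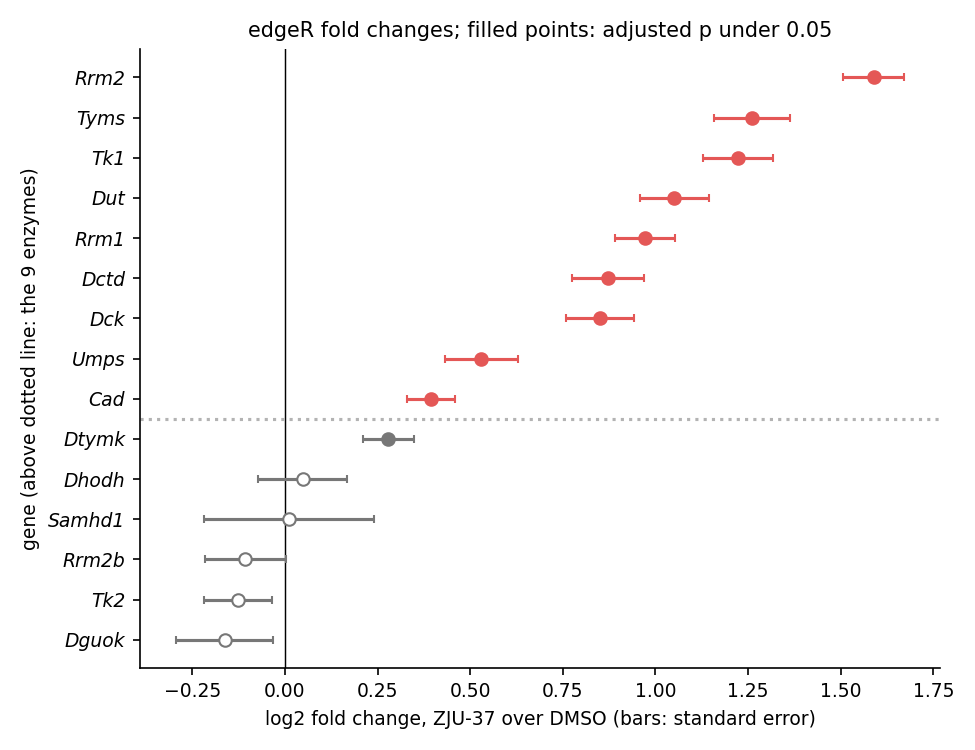
Log2 fold changes of ZJU-37 over DMSO (horizontal axis) with standard errors as bars, for the 9 enzymes (red, above the dotted line) and 6 partner or counterpart genes (grey), where filled points have an adjusted p under 0.05 in edgeR. All 9 enzymes lie right of 0, from 0.40 for Cad to 1.59 for Rrm2, while Rrm2b, Tk2 and Dguok lie at -0.11, -0.13 and -0.16.

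The promoters of members were read from RefSeq (build GRCr8), as windows of 250 bases before and 50 bases after the annotated start. The table held 8 windows for 7 of the 9 members, of which Dut had more than 1. Windows were searched on both strands for the E2F site in its 8-letter spellings TTTCCCGC, TTTCGCGC, TTTGCCGC and TTTGGCGC and for a shorter core, which is any of the 4 words without its first T and so lies within the site. CCAAT was searched as well, and so was the CHR element, found in many genes of the late cell cycle, as TTTGAA or, in its other spelling, TTCGAA. Shown are the 250 bases before the start of Rrm1, which held the most matches, and 30 bases around the 1 full E2F site, that of Tyms. For contrast, 209 bases are shown from the window of Tk1, whose increase was near that of Tyms and which held none of these words, up to the outer end of the gene in RefSeq. Capitals mark every match.
Rrm1, chr1:166235654-166235903, plus strand: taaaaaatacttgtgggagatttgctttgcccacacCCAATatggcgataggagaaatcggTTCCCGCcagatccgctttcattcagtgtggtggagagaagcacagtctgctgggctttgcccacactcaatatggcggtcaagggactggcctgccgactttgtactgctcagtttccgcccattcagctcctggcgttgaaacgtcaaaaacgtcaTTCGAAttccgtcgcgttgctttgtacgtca
Tyms, chr9:120776102-120776131, minus strand: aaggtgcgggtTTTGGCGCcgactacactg
Tk1, chr10:103544819-103545027, minus strand: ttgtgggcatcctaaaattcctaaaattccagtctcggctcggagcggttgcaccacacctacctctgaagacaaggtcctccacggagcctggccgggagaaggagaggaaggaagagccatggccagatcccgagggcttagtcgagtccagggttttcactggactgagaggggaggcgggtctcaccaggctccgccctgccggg
In the Rrm1 window the capitals are, in order, a CCAAT box, an E2F core from -189 to -183 and the CHR spelling TTCGAA from -31 to -26, counting the annotated start as 0. Another E2F core of Rrm1 lies on the other strand, 12 to 18 bases past the start. In the Tyms window the match is the full E2F site TTTGGCGC from -37 to -30. The annotated start of a window is not always the outer end of the gene in RefSeq, which lies 66 bases further upstream for Tyms, 41 for Tk1, 62 for Cad, 239 for Dctd, and 172 and 641 for the windows of Dut, and at the start itself for Rrm1 and Dck. The E2F site of Tyms and the matches of Dctd, Cad and Dut thus lie inside the outer end of their genes. Among the other windows, Dctd held an E2F core from -26 to -20 and Cad one at 36 to 42 bases past the start, while Dck and the Dut window that starts 641 bases inside each held a TTTGAA, at -212 to -207 and -197 to -192. The full E2F site was present in 1 of the 8 windows and in 2.14% of all 33469 RefSeq windows of this length, and the core in 4 of 8 and in 9.52%. CCAAT was present in 1 of 8 and in 37.5% of all windows, and a CHR spelling in 3 of 8 and in 19.7%. The E2F words are rich in G and C, as were the 8 windows, with between 52.3% and 71% G and C against a median of 51.7% over all windows. Matches to these letters do not show that a factor bound there.

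Ribonucleotide reductase showed the largest single increase. Rrm2, the small subunit whose radical drives the reaction (chromosome 6, 43884678 to 43889515, plus strand), takes its position from the authors' table like the other members, and the build of that table is not named. In the DMSO libraries its level was 57.2, 64.7 and 60.5 CPM (replicates 1, 2 and 3, the order kept from here on), and in the ZJU-37 libraries it was 199, 172 and 178 CPM. The lowest ZJU-37 library was thus far above the highest DMSO library. The means of 60.8 ± 3.75 and 183 ± 14.5 CPM (SD, n = 3 libraries each) differed by 1.59 on the log2 scale (standard error, SE, 0.08, adjusted p = 2.25e-04, edgeR), the 88th largest increase of 14670 tested genes. Rrm1, the large catalytic subunit with the allosteric sites (chromosome 1, 167538263 to 167562688, plus strand), had 137, 137 and 131 CPM in the DMSO libraries and 294, 247 and 254 CPM in the ZJU-37 libraries. Its libraries were tight within DMSO and its ZJU-37 replicate 1 stood highest. The log2 fold change was 0.97 (SE 0.08, adjusted p = 5.97e-04, edgeR).

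In the thymidylate branch, Dctd and Dut both produce dUMP, and Tyms methylates it to dTMP. Tyms (chromosome 9, 121918947 to 121931564, minus strand) had 20.9, 20.6 and 16.9 CPM with DMSO and 48.3, 43.4 and 48.1 CPM with ZJU-37. It was the member with the second largest increase, with a log2 fold change of 1.26 (SE 0.10, adjusted p = 5.68e-04, edgeR). Tk1, at 1.22 (SE 0.09), lay within these standard errors, so the order of Tyms and Tk1 is not settled. Dut, which hydrolyses dUTP and so keeps uracil out of DNA (chromosome 3, 117514444 to 117525446, plus strand), had 46.5, 48.2 and 42.3 CPM with DMSO and 105, 86.6 and 92.1 CPM with ZJU-37, a log2 fold change of 1.05 (SE 0.09, adjusted p = 7.05e-04, edgeR). Dctd, which deaminates dCMP (chromosome 16, 47177145 to 47208110, minus strand), was the least abundant member. It had 11.8, 11.6 and 13.2 CPM with DMSO and 23.1, 21.1 and 22.8 CPM with ZJU-37, a log2 fold change of 0.87 (SE 0.10, adjusted p = 0.00173, edgeR).

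The salvage kinases rose as well. Tk1, the cytosolic thymidine kinase (chromosome 10, 106817601 to 106828884, minus strand), stood at 79.5, 77.8 and 74.6 CPM with DMSO and 206, 165 and 170 CPM with ZJU-37. The means were 77.3 ± 2.46 and 181 ± 21.9 CPM (SD over 3 libraries), a log2 fold change of 1.22 (SE 0.09, adjusted p = 5.05e-04, edgeR). Dck, which phosphorylates deoxycytidine and deoxypurine nucleosides (chromosome 14, 20935369 to 20953095, minus strand), had 22.3, 23.9 and 24.3 CPM with DMSO and 47.0, 39.2 and 40.9 CPM with ZJU-37. Its log2 fold change was 0.85 (SE 0.09, adjusted p = 0.0015, edgeR). For both kinases ZJU-37 replicate 1 was the highest library, as it was for 8 of the 9 members.

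The enzymes of de novo pyrimidine synthesis moved least. Cad carries the first 3 activities of the pathway on 1 polypeptide (chromosome 6, 26657780 to 26680284, minus strand). It had 106, 108 and 102 CPM with DMSO and 149, 135 and 133 CPM with ZJU-37, a log2 fold change of 0.40 (SE 0.06, adjusted p = 0.00839, edgeR). Umps, which carries the last steps to UMP (chromosome 11, 70034139 to 70044628, plus strand), had 36.5, 47.3 and 43.1 CPM with DMSO and 60.1, 60.1 and 63.2 CPM with ZJU-37. DMSO replicate 1 was its lowest library and the ZJU-37 libraries were close together. Its log2 fold change was 0.53 (SE 0.10, adjusted p = 0.0142, edgeR). In this fit without the replicate block, Umps was the 1 member whose call depended on a library. The adjusted p was 0.0505 without DMSO replicate 3 and 0.0617 without ZJU-37 replicate 3 (edgeR). With the replicate block and every library its adjusted p was 6.08e-04 (edgeR).

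**Figure D2:**
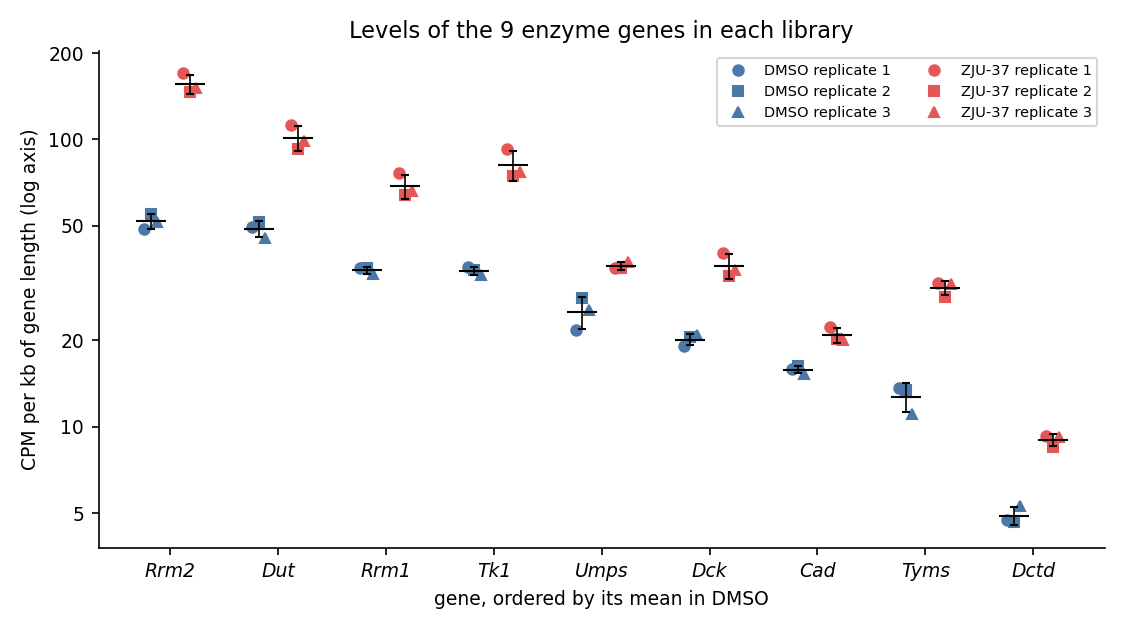
Level of each of the 9 genes in every library as CPM per kilobase of gene length on a log axis (blue, DMSO; red, ZJU-37; circle, square and triangle, replicates 1, 2 and 3), with the mean and SD in black. The groups do not overlap for any of the 9 genes, and Rrm2 with ZJU-37 is highest at 156 ± 12.4.

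Per kilobase of gene length, which allows levels to be compared between genes, Rrm2 stood first in DMSO with 51.8 ± 3.2 CPM per kb, but its libraries overlapped those of Dut at 48.9 ± 3.26 (SD, n = 3 libraries, here and for the levels that follow). Rrm1 at 35.1 ± 0.944 and Tk1 at 34.9 ± 1.11 CPM per kb also overlapped. Below them Umps (25.1 ± 3.21), Dck (20.1 ± 0.919), Cad (15.8 ± 0.472), Tyms (12.7 ± 1.43) and Dctd (4.90 ± 0.361) followed with no overlap between neighbours. With ZJU-37 the order of levels was altered at several places. Rrm2 at 156 ± 12.4 CPM per kb stood clear of Dut at 101 ± 10.0. Tk1 at 81.4 ± 9.87 came before Rrm1 at 68.8 ± 6.53, with overlapping ranges although Tk1 was the higher in 3 of 3 libraries. Dck at 36.3 ± 3.51 and Umps at 36.3 ± 1.06 could not be ordered. Tyms at 30.4 ± 1.81 CPM per kb lay above Cad at 20.8 ± 1.27, the reverse of their order in DMSO, and Dctd stayed last at 8.98 ± 0.434. In CPM, the 9 genes together summed to 518, 540 and 508 with DMSO and to 1131, 969 and 1003 with ZJU-37.

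Both groups carry replicate numbers 1 to 3, and the increase was seen within every same-numbered pair. The median log2 difference over the 9 members was 1.10, 0.85 and 0.96 in the pairs of replicate 1, 2 and 3, and in all 3 pairs each member stood higher in the ZJU-37 library. For 8 of 9 members the pair of replicate 1 showed the largest difference, the exception being Tyms, with 1.20, 1.07 and 1.5. For 8 of 9 the pair of replicate 2 showed the smallest, the exception being Dctd, with 0.97, 0.86 and 0.78. In the fit blocked by replicate number all 9 were called higher again, where 16.2% of all tested genes were called higher and 15.9% lower.

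**Figure D3:**
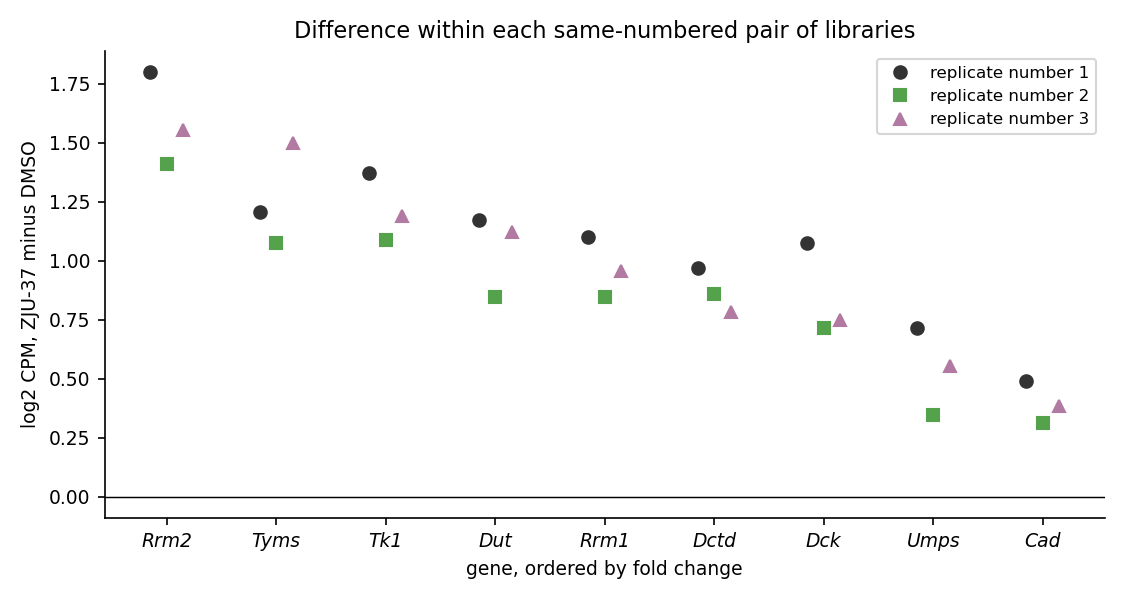
Difference in log2 CPM (ZJU-37 minus DMSO) for each gene in the same-numbered pairs of libraries (circle, square and triangle, replicates 1, 2 and 3). All points lie above 0, from 0.31 for Cad in pair 2 to 1.80 for Rrm2 in pair 1.

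Ratios of 2 genes in the same library are free of the scaling between libraries. Rrm2 and Rrm1 encode partner subunits, and the ratio of their levels per kb was 1.37, 1.55 and 1.52 with DMSO and 2.23, 2.28 and 2.29 with ZJU-37, a 1.54-fold difference. Rrm2b encodes the alternative small subunit that serves mitochondrial DNA and repair outside S phase. The ratio of Rrm2 to Rrm2b was 5.27, 5.63 and 5.23 with DMSO and 19.6, 15 and 17.9 with ZJU-37, a 3.24-fold difference. Tk2 is the mitochondrial thymidine kinase, and the ratio of Tk1 to Tk2 was 2.46, 2.40 and 2.56 with DMSO and 8.0, 5.44 and 5.74 with ZJU-37, a 2.54-fold difference. These 3 ratios did not overlap between the groups (two-sided exact permutation test, p = 0.1 each, the smallest possible, and 0.133 adjusted over the 4 ratios computed).

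**Figure D4:**
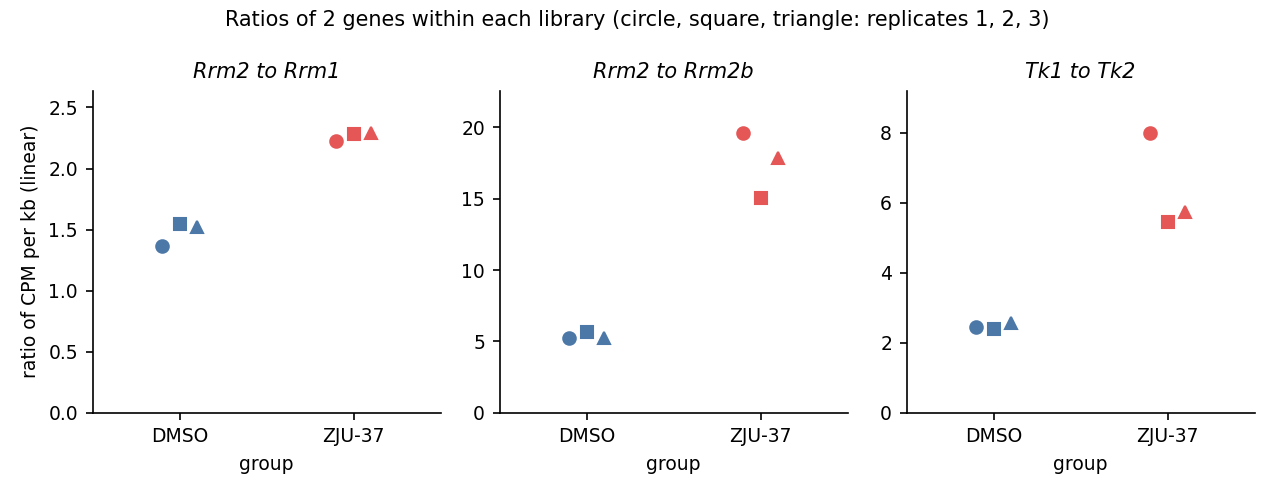
Ratio of CPM per kb of 2 genes in each library on linear axes that start at 0 (blue, DMSO; red, ZJU-37; circle, square and triangle, replicates 1, 2 and 3). The ratios of Rrm2 to Rrm1, Rrm2 to Rrm2b and Tk1 to Tk2 are each separated between the groups.

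The counterparts themselves did not pass the test. Rrm2b had 11.1, 11.8 and 11.8 CPM with DMSO and 10.4, 11.7 and 10.2 CPM with ZJU-37 (log2 fold change -0.11, SE 0.11, adjusted p = 0.592, edgeR). Tk2 had a log2 fold change of -0.13 (SE 0.09, adjusted p = 0.431) and Dguok, the mitochondrial deoxyguanosine kinase, one of -0.16 (SE 0.13, adjusted p = 0.484) in the same test. Dhodh, the mitochondrial step of pyrimidine synthesis between Cad and Umps, had 14.7, 18 and 14 CPM with DMSO and 15.6, 16.7 and 16.0 CPM with ZJU-37 (log2 fold change 0.05, SE 0.12, adjusted p = 0.837, edgeR). Samhd1, which breaks dNTPs down, had a log2 fold change of 0.01 (SE 0.23, adjusted p = 0.985, edgeR), with 22.5 ± 4.56 CPM with DMSO and 22.7 ± 5.88 CPM with ZJU-37 (SD, n = 3 libraries each).

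Beyond the 9, lists of 74 further genes of nucleotide metabolism were written from general knowledge, but with earlier results of these data known. Of the 74, 69 were tested. Of these, 19 were higher at an adjusted p under 0.05 in edgeR (27.5%, against 9.43% of all tested genes), and 0 were lower (2 at an unadjusted p under 0.05, 0 by DESeq2). With the replicate block 28 were higher and 4 lower. Leaving out 1 library in turn gave between 13 and 19 higher genes. Among other enzymes of dNTP supply 4 of 18 rose, with a list median of 0.06, and 2 did so without DMSO replicate 2, DMSO replicate 3 or ZJU-37 replicate 3. Nme2, a nucleoside diphosphate kinase with a close relative in Nme1 that may share its reads, rose by 0.37 (adjusted p = 0.00619, edgeR). Dtymk, which phosphorylates dTMP, had a log2 fold change of 0.28 (adjusted p = 0.0383, edgeR), and this call was lost without DMSO replicate 1, 2 or 3 (adjusted p = 0.108, 0.0737 and 0.110) and without ZJU-37 replicate 2 or 3 (adjusted p = 0.0730 and 0.125, edgeR).

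Of 8 other pyrimidine nucleotide enzymes, 0 passed in either direction in edgeR (0 lower at an unadjusted p under 0.05; DESeq2 called 1 higher), and with the replicate block 2 were higher and 1 lower. In folate one-carbon metabolism, which feeds Tyms and the purine ring, 4 of 13 rose (list median 0.26), and 2 did so without DMSO replicate 2. Shmt1, which loads 1-carbon units onto folate, rose by 0.68 (SE 0.09, adjusted p = 0.0032, edgeR), and Mthfd1l, a mitochondrial enzyme of the same cycle, by 0.57 (SE 0.08, adjusted p = 0.00501, edgeR). In purine synthesis and salvage 7 of 15 rose (list median 0.31). Pfas and Prps1, of the de novo route and its ribose phosphate supply, rose by 0.66 and 0.64 (adjusted p = 0.00145 and 0.00245, edgeR), and Prps2 rose by 0.55 (adjusted p = 0.00389, edgeR). Among genes of nucleotide breakdown and pool cleaning 4 of 15 rose (list median 0.14), and 2, 1 and 2 did so without DMSO replicate 1, DMSO replicate 3 and ZJU-37 replicate 3. Dctpp1, which hydrolyses dCTP and its damaged forms, went from 13.0 ± 1.06 to 26.9 ± 3.09 CPM (SD, n = 3 libraries each; log2 fold change 1.04, SE 0.12, adjusted p = 0.00183, edgeR).

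**Figure D5:**
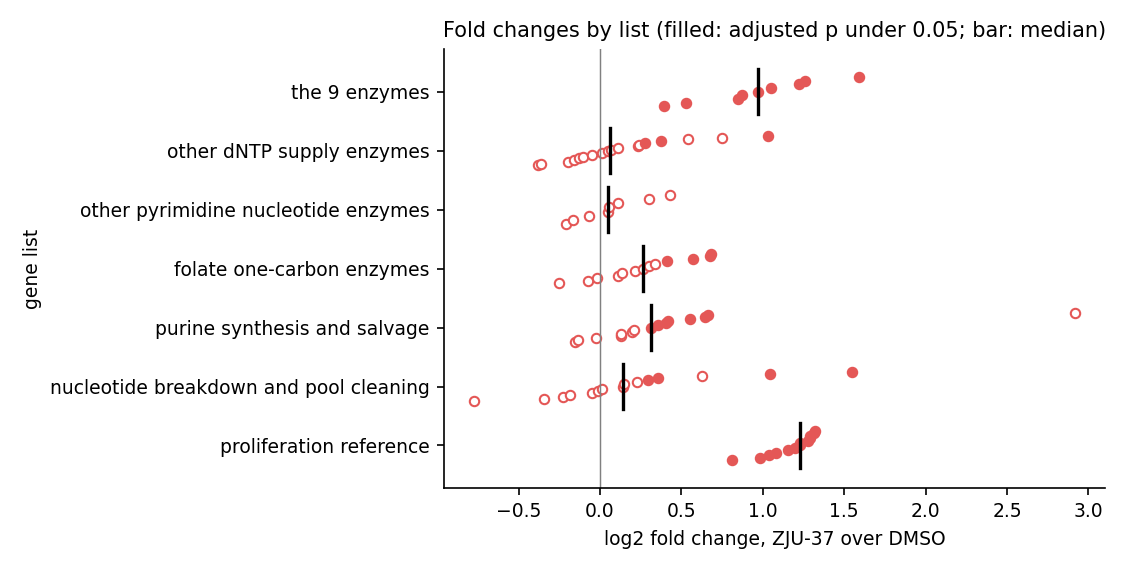
Log2 fold change (ZJU-37 over DMSO) of every tested gene of the 9 enzymes and of 6 lists, where filled points have an adjusted p under 0.05 in edgeR and the bar is the median. The median is 0.97 for the 9 enzymes and 1.23 for the proliferation genes, and between 0.05 and 0.31 for the lists of other nucleotide enzymes.

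Markers of dividing cells moved with the 9 enzymes. All 13 tested genes of a proliferation list (Mki67, Top2a, Pcna, the Mcm helicase genes, mitotic cyclins and others) rose, with a median log2 fold change of 1.23. Their summed level ran from 1160 to 1235 CPM with DMSO and from 2492 to 3028 CPM with ZJU-37. The summed level of the 9 enzymes amounted to 43.1%, 43.7% and 43.8% of that of the proliferation list with DMSO, and to 37.3%, 38.9% and 39.2% with ZJU-37. The share was thus lower in each ZJU-37 library. The part of the number of dividing cells in the increase of the enzymes was not tested.

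By the root mean square difference of log2 CPM profiles over the 6 libraries, each centred on its own mean, the genes most like the mean profile of the 9 enzymes included Atad2, Mad2l1, Fam83d and Smc4, all within the nearest 5 of 13884 compared. Their distances were 0.02, 0.04, 0.05 and 0.05 on the log2 scale, and their log2 fold changes were between 0.91 and 1.0. Among the members, which themselves make up the mean profile, Rrm1 lay nearest to it at 0.03. Rrm2 (0.31), Cad (0.29) and Umps (0.24) lay farthest from it. Of the genes outside the members, 1256, 1076 and 769 lay nearer to it than Rrm2, Cad and Umps.

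The labelled cell type was checked against marker lists. All 8 OPC markers were detected, with summed levels of 4041 to 4674 CPM with DMSO and 4465 to 6144 CPM with ZJU-37. Of the 8, 4 rose, among them Pdgfra (log2 fold change 1.10). The 3 that fell were Sox10 (log2 fold change -0.61), Gpr17 (-3.43) and Nkx2-2 (-1.74). Mature oligodendrocyte markers summed to between 10489 and 21222 CPM with DMSO and between 4489 and 9504 CPM with ZJU-37, and 1 of 8 (Cnp) fell while 0 rose (4 lower at an unadjusted p under 0.05, 4 lower by DESeq2, 5 lower with the replicate block). Astrocyte markers summed to 1026 to 1655 and 904 to 1358 CPM, with 1 of 8 (Aldoc) lower (with the replicate block 4 lower and 1 higher). For microglia the sums were 1627 to 2780 and 1195 to 2517 CPM, and for neurons 750 to 987 and 657 to 894 CPM, with 0 of 8 called in either list by edgeR or DESeq2 (0 and 1 lower at an unadjusted p under 0.05, 2 and 3 lower with the replicate block). Fibroblast and vascular markers summed to at most 114 CPM in any library, and Cldn5 was at 0 counts in all 6. Cells other than OPCs were therefore present in both groups, and their part in the levels of the 9 enzymes was not tested.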

How the data were processed

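Gene-level read counts of 6 poly-A RNA libraries (3 DMSO, 3 ZJU-37) were used. These are raw counts per gene, which the authors obtained with featureCounts and deposited without normalization. The submitters' processing notes also name HISAT2 2.0.5, StringTie 1.3.3b and featureCounts 1.5.0. The genome build is not given in the sources used here. The deposited FPKM values, made by the authors from these counts and the gene length, served for alternatives only. Columns of the authors' own comparison (group means, fold changes and p-values) were not used.

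Genes were filtered with filterByExpr, which kept 14670, scaled by TMM, whose factors ran from 0.981 to 1.04, and compared in R 4.3.3 with edgeR 4.0.16 (glmQLFit robust, glmQLFTest) on all 6 libraries without covariates, with Benjamini-Hochberg adjusted p-values. CPM values use the TMM factors, and log2 CPM used a prior count of 2. A standard error (SE) is the size of the log2 fold change divided by the square root of F. Of 145 listed symbols, 141 were found, 1 of them through the RefSeq gene table. Library totals ran from 13935865 to 24097927. Chi-square values between libraries of a group per degree of freedom were 11.8 or more, and no library was taken for a duplicate. The steps were tested on simulated data.

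Same-numbered libraries deviated together from the means of their groups across genes (r = 0.39, 0.31 and 0.33; genes are not independent replicates), so the numbers were taken to pair the libraries. The SE and adjusted p-values given per gene are from the fit without this pairing, unless the block is named. The permutation tests took no account of the pairs either. The labels name no batch.

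The members and all gene lists were chosen with earlier results of these data known. Named were all 9 members, 6 partner or counterpart genes, and from each list at most 3 further genes per direction with the smallest adjusted p and no overlap between groups, plus 4 of the 5 genes of most similar profile (mean of at least 1 CPM); Pdgfra, Gpr17, Nkx2-2, Sox10, Cnp, Aldoc and Cldn5 were named from the marker lists, and Dpyd, Cda and Hprt1 in the closing section, after their values were seen. Promoter words were chosen from general knowledge. Alternatives were DESeq2 1.42.0, limma-voom and limma 3.58.1 on log2(FPKM + 1), DESeq2 size factors, library size only, no filter on low counts or a minimum of 10 counts per library, the replicate block, thinning to 13935865 counts and leaving out each library. Some results under this rule, and 1 of the 4 ratios, are not reported here. Proteins were not analysed here.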

Additional observations from a re-analysis of the deposited data

How the results depend on the processing

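All 9 enzymes kept their direction and an adjusted p under 0.05 in every alternative run, except Umps when DMSO replicate 3 or ZJU-37 replicate 3 was left out. The count of called enzymes ran from 8 to 9 and their median log2 fold change from 0.91 to 1.05 when 1 library was left out. With the replicate block the count was 9, the log2 fold changes ran from 0.39 to 1.58, and the largest adjusted p was 6.08e-04 (edgeR), so the block changed no call among the 9. The log2 difference of the ratio of Rrm2 to Rrm1 stayed between 0.57 and 0.65, that of Rrm2 to Rrm2b between 1.61 and 1.80, and that of Tk1 to Tk2 between 1.17 and 1.45 when 1 library was left out. Of the partner and counterpart genes, 2 without a call changed sign. The log2 fold change of Samhd1 was -0.014 with limma-voom, -0.000603 with limma on log2(FPKM + 1) and between -0.16 and 0.20 with 1 library left out, and that of Dhodh was between -0.024 and 0.17. Over all genes, 1383 higher and 818 lower calls became 2371 and 2334 with the replicate block, and between 858 and 1259 and between 374 and 668 with 1 library left out. Depth limits little here, since every enzyme had at least 161 counts in each library; the number of libraries limits the permutation tests.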

Other observations

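Dpyd, which starts the breakdown of uracil and thymine, went from 1.24, 1.69 and 0.956 CPM with DMSO (replicates 1, 2 and 3) to 4.92, 3.39 and 3.14 CPM with ZJU-37. The difference of 1.55 on the log2 scale (SE 0.30, adjusted p = 0.0161, edgeR) rested on as few as 17 counts in a library, and the adjusted p was 0.0576 without DMSO replicate 1 and 0.0570 without DMSO replicate 3. Cda, the cytidine deaminase, had 0 counts in all 6 libraries, which allows at most 0.215 CPM in the smallest of them.

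Hprt1, the purine salvage enzyme often used as a reference gene, had 5, 8 and 43 counts in DMSO replicates 1, 2 and 3 and 14, 480 and 8 counts in ZJU-37 replicates 1, 2 and 3. ZJU-37 replicate 2 was at 23.3 CPM, with all other libraries at 2.28 CPM or less. The adjusted p of its log2 fold change was 0.308 (edgeR). Whether this entry holds all reads of Hprt1 was not tested, so its counts need not give the level of the gene.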
